A study of Mus musculus with 9 samples.

Results

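The comparison described here sets the aorta of mice given β-aminopropionitrile (BAPN) and coenzyme Q10 (coQ10) against the aorta of mice given BAPN alone. Its members are the single coQ10 library and both BAPN libraries, 3 of the 9 bulk RNA-seq libraries of the series, chosen by their treatment labels. All 3 came from C57BL/6J mice that received BAPN at 1 g/kg/day, with day 28 as the protocol's end point, so the coQ10 library differs by a gavage of coQ10 at 10 mg/kg/day that began on day 7 or 14. The remaining libraries, used for the spread and as levels set beside these, came from mice given BAPN with the AP-1 activator TPA at 50 ng/g/day from day 1 (2 libraries), BAPN with the AP-1 inhibitor T-5224 at 5 mg/kg/day (2 libraries), and distilled water without BAPN (normal, 2 libraries). The protocol gives 12 mice per treatment, but the labels do not say whether a library holds 1 aorta or a pool, which gavage start the coQ10 library had, or how old and of which sex the mice were. The labels of that library spell the compound co110, which was read as the coQ10 of the protocol. Because 1 side holds a single library, values of coQ10 that lie outside both BAPN values are descriptions of that library and not a replicated effect.

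BAPN blocks the lysyl oxidases, the copper enzymes that cross-link elastin and collagen, and mice that receive it develop aortic dissection, in which blood enters the torn medial layer. The healthy media consists of contractile smooth muscle cells between elastic lamellae. Coenzyme Q is the lipid that carries electrons from complexes I and II and several other dehydrogenases to complex III of the respiratory chain, and in its reduced form it also stops chain reactions of lipid peroxidation. Interleukin 6 and the CXC and CC chemokines draw and activate leukocytes, and their genes are classical targets of the transcription factors NF-kB and AP-1. The comparison asks how far the RNA profile of the BAPN aorta differed when coQ10 was given as well.

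Expression was given as FPKM (fragments scaled to transcript length and library size) per gene symbol, and differences were taken on the scale log2(FPKM + 1), which understates the change of genes with low values. The coQ10 library listed 14803 genes above 0, and the BAPN libraries listed 14682 and 15392. Read counts were not available, so the depth is unknown. Among genes with low values in both libraries, the commonest ratio of the coQ10 to the BAPN value was 0.966 and 1.14, although these modes held only 22 of 419 and 23 of 467 genes. Haemoglobin genes held 5.40% of the FPKM sum in the coQ10 library, against 68.9% and 74.1% in the BAPN libraries, and the FPKM sum without haemoglobin was 582616 in coQ10, against 507569 and 467533 in BAPN. TPA libraries had haemoglobin shares of 69.4% and 69.2%, T-5224 libraries 40.8% and 11.2%, and normal libraries 1.25% and 1.03%. Over the tested genes, the Pearson correlation of log2(FPKM + 1) was 0.83 and 0.771 between coQ10 and the BAPN libraries and 0.944 between the BAPN libraries themselves, and coQ10 was closest to T-5224 replicate 1 (0.94) and normal replicate 2 (0.934).

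Of the 12997 genes tested in limma, 2 were lower in coQ10 (0.0154%) and 0 were higher (0%) at a Benjamini-Hochberg adjusted p under 0.05, while 2572 had an unadjusted p under 0.05. The 2 genes were Il6 and Cxcl1. The fit used all 9 libraries, in which the T-5224 libraries formed 1 group although the title of replicate 1 carries the term 2 week and that of replicate 2 the term 3 week. The spread between them enters every limma value, and 25 genes passed without replicate 1 and 176 without replicate 2. In the fit, the single coQ10 library was assumed to vary like the groups with 2 libraries. Nothing in the labels says that replicates came from separate animals, so p-values measure only the spread between these libraries. As a description without a test, coQ10 lay above both BAPN libraries for 7746 genes (59.6%) and below both for 3132 (24.1%). A distance of at least 1 on the log2 scale from the nearer BAPN library was reached by 2147 genes above (16.5%) and by 1020 genes below (7.85%). This split depended on the scaling: after rescaling every library by the median of ratios, 1085 genes lay above by at least 1 (8.36%) and 1480 below (11.4%), and 39.2% lay above and 40.2% below at any distance. The median difference of all genes, coQ10 minus BAPN, was 0.39 on the log2 scale as deposited and −0.01 after rescaling. Counts and medians of the lists below are read against these shares and medians of all genes. Lists whose median turned sign with the scaling are named as such.

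Cytokines and chemokines lay far lower in the coQ10 library than in either BAPN library. Of the 27 listed genes, 22 passed the filter of a mean FPKM of at least 1, and 17 of these lay below both BAPN values by at least 1 log2, against the 7.85% of all genes. Another 3 lay above both and 2 lay between. The median difference of the list was −3.48, or −3.84 after rescaling, against 0.39 and −0.01 for all genes. The mean log2 level of the list was 2.01 in coQ10, against 5.39 and 4.97 in BAPN, with 1.95 and 1.52 in normal aorta.

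Il6 encodes the cytokine interleukin 6, which signals through gp130 and STAT3. Its level was 0.94 FPKM in coQ10, against 214.97 and 139.93 FPKM in BAPN. TPA libraries had 7.58 and 12.04 FPKM, T-5224 libraries 1.3 and 1.37 FPKM, and normal libraries 0 and 0.1 FPKM. The difference was −6.49 ± 0.42 (standard error, limma adjusted p = 0.0129), and the BAPN mean of 177.5 ± 53.1 FPKM (SD, n = 2) was 189 times the coQ10 value. Cxcl1, a chemokine that attracts neutrophils, had 2.76 FPKM in coQ10, against 364.5 and 255.2 FPKM in BAPN. Its other levels were 45.6 and 47.6 FPKM in TPA, 4.93 and 7.59 FPKM in T-5224, and 3.14 and 1.77 FPKM in normal aorta. It fell by 6.35 ± 0.43 on the log2 scale (limma adjusted p = 0.0129), which placed the coQ10 value between the normal libraries. Both calls were lost when any 1 library of the BAPN, TPA or normal groups was left out, with limma adjusted p from 0.05 to 0.21, and kept when either T-5224 library was left out. With 0.1 in place of 1 added to FPKM, Il6 missed the threshold (limma adjusted p = 0.0587) and Cxcl1 passed it (limma adjusted p = 0.0435). With either BAPN library left out, the differences of both genes lay between −6.80 and −6.09. Leaving out a TPA, T-5224 or normal library cannot change these differences.

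The next cytokines missed the threshold in limma. Ccl7, which encodes monocyte chemoattractant MCP-3, had 0.71 FPKM in coQ10, against 379.8 and 194.8 FPKM in BAPN (difference −7.32 ± 0.75, limma adjusted p = 0.058). Ccl2, the monocyte chemoattractant MCP-1, had 2.58 FPKM in coQ10, against 202.7 and 97.4 FPKM in BAPN, with 1.22 and 0.46 FPKM in normal aorta (limma adjusted p = 0.058). Csf3, which encodes the granulocyte growth factor G-CSF, had 0.16 FPKM in coQ10, against 54.2 and 38.6 FPKM in BAPN. The neutrophil chemokine Cxcl2 had 1.68 FPKM in coQ10, against 98.5 and 68.8 FPKM in BAPN. Its neighbour Cxcl3 was listed at 0 in coQ10, against 35.81 and 22.04 FPKM in BAPN. For each of these 5 genes coQ10 lay far below both BAPN libraries, and both TPA libraries lay below both BAPN libraries as well.

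Il1b, the pro-inflammatory cytokine interleukin 1β, had 1.25 FPKM in coQ10, against 87.8 and 49.0 FPKM in BAPN, and 93.0 and 12.1 FPKM in TPA. Ccl5, a chemokine for T cells, had 0.31 FPKM in coQ10, against 24.4 and 46.8 FPKM in BAPN, and was lower in coQ10 than in any of the other 8 libraries. Ccl3 had 0.35 FPKM in coQ10, against 27.9 and 30.3 FPKM in BAPN, and Ccl4 was listed at 0, against 7.33 and 5.66 FPKM. The eosinophil chemokine Ccl11 had 6.45 FPKM in coQ10, against 135.6 and 114.2 FPKM in BAPN, and lay below both normal values of 24.2 and 12.1 FPKM. Differences of −1.95 to −2.45 on the log2 scale separated coQ10 from BAPN for Osm, Lif, Cxcl5, Ccl8 and Cxcl10. The exceptions were Cx3cl1, Cxcl12 and Cxcl9, which lay above both BAPN libraries. Cx3cl1, the membrane-bound chemokine fractalkine, had 20.8 FPKM in coQ10, against 7.8 and 4.36 FPKM in BAPN, and Cxcl12, a chemokine that stromal cells make at rest, had 229.4 FPKM in coQ10, against 108.6 and 129.9 FPKM. Csf1 and Ccl9 lay between the BAPN values.

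**Figure D1:**
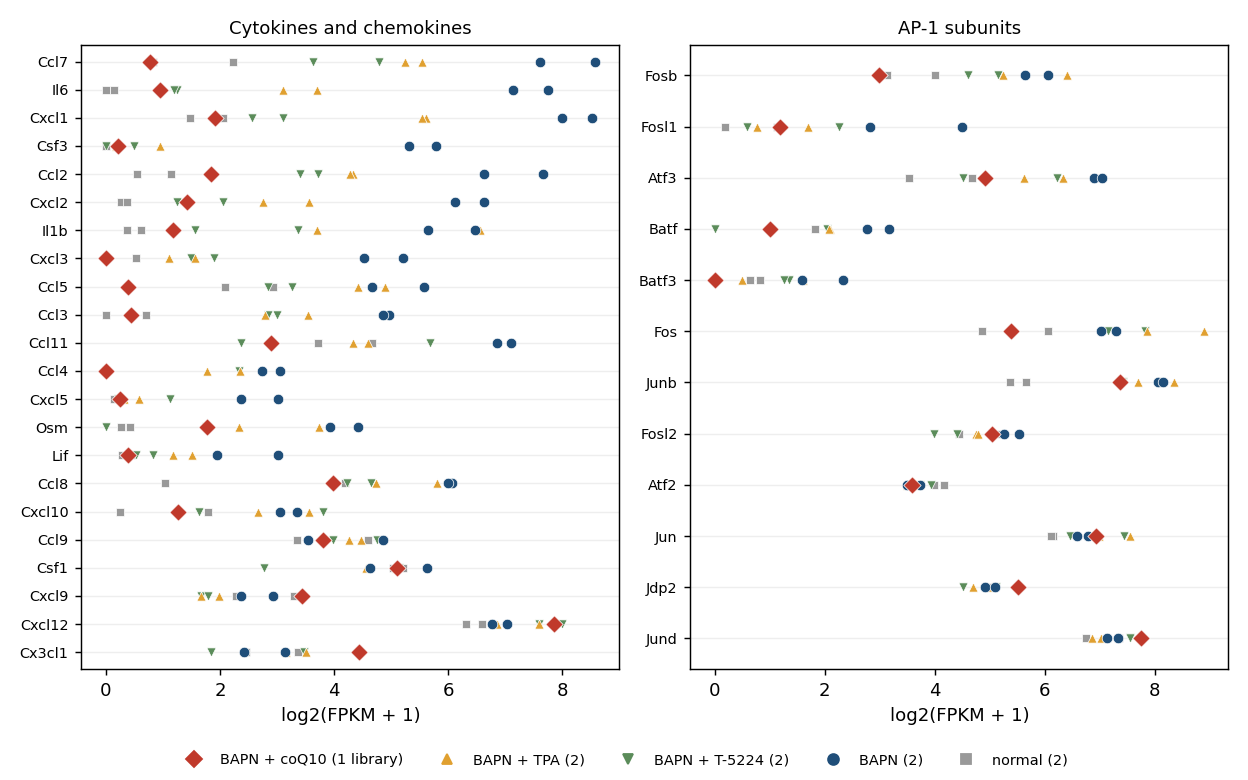
Levels of the 22 tested cytokine and chemokine genes (left) and the 12 AP-1 subunit genes (right) in each of the 9 libraries, as log2(FPKM + 1). Each point is 1 library; the coQ10 diamond lies left of both BAPN circles for 17 cytokine genes by at least 1 log2 and for 6 AP-1 genes by at least 1 log2.

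The 250 bases before the start site of Il6, Cxcl1, Cxcl2 and Cxcl3 are shown because these are the genes that passed the test and their nearest neighbours among the CXC chemokines, and because each holds a match to the NF-kB motif. The sequences are from RefSeq on GRCm38.p6 (mm10), all on chromosome 5 and on the plus strand, printed 5′ to 3′ up to the base before the start site. They span chr5:30012864-30013113 for Il6, chr5:90890995-90891244 for Cxcl1, chr5:90903649-90903898 for Cxcl2 and chr5:90785851-90786100 for Cxcl3. Capitals mark matches to the NF-kB motif and, in Il6, also the AP-1 motif TGANTCA, searched on both strands.
Il6: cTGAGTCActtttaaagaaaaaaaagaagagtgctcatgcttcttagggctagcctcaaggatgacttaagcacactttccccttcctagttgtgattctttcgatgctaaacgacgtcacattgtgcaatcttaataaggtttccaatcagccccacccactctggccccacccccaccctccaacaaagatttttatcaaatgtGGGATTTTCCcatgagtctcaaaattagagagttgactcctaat
Cxcl1: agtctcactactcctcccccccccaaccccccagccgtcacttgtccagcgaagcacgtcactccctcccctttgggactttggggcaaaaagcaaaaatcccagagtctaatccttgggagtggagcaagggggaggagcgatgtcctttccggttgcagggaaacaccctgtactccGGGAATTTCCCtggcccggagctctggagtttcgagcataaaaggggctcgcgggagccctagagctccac
Cxcl2: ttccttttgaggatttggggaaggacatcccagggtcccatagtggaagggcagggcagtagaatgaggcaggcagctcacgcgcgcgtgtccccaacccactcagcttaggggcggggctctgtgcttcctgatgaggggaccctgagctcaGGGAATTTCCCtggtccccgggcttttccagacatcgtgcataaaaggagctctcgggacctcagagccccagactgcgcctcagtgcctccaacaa
Cxcl3: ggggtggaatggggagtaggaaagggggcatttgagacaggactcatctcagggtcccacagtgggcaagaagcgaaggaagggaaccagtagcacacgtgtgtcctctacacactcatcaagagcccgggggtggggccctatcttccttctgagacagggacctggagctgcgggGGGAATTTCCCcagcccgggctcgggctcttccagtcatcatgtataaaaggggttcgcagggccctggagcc
The NF-kB match of Il6 began 44 bases before the start site and its AP-1 match 249 bases before it. In Cxcl1, Cxcl2 and Cxcl3 overlapping matches on the 2 strands made up a run of the same 11 bases, which began 71, 97 and 73 bases before the start site. Of the 22 tested cytokine genes, 14 had a sequence in the RefSeq table, and 7 of these (50%) held an NF-kB match in the 250 bases, against 3.9% of all 32851 promoters searched. These were Il6, Cxcl1, Cxcl2, Cxcl3, Csf1, Cxcl10 and Ccl9, of which Csf1 and Ccl9 did not lie below both BAPN libraries. The AP-1 motif was found in 4 of the 14 (28.6%), Il6, Lif, Cxcl10 and Ccl9, against 6.75% of all promoters. For every motif here and below, a gene was counted if any of its promoters held a match. The share of all promoters counts single promoters, so the 2 shares are not in the same unit. A match is a string of letters and not evidence of binding.

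Of the 17 genes that receive and transmit cytokine signals, 7 lay above both BAPN libraries and 6 below, against 59.6% and 24.1% of all genes. After rescaling 2 lay above and 10 below, against 39.2% and 40.2%. By at least 1 log2, 1 lay above and 4 below, or 0 and 4 after rescaling. The median was −0.02 as deposited and −0.43 after rescaling, against 0.39 and −0.01 for all genes. Il1r2, the decoy receptor of interleukin 1, had 0.74 FPKM in coQ10, against 27.0 and 15.1 FPKM in BAPN. Socs3, the feedback inhibitor of STAT3 signalling, had 13.0 FPKM in coQ10, against 186.1 and 86.3 FPKM in BAPN, with 8.25 and 6.27 FPKM in normal aorta. Il6st, which encodes the shared receptor subunit gp130, had 67.9 FPKM in coQ10, against 29.1 and 30.6 FPKM in BAPN. Stat3 itself had 54.9 FPKM in coQ10, against 43.2 and 33.9 FPKM in BAPN. The 13 NF-kB genes had a median of −1.19. By at least 1 log2, 6 of them lay below both BAPN libraries and 0 above, against 7.85% and 16.5% of all genes. The inhibitors of the pathway Tnfaip3 and Nfkbie and the subunit partner Bcl3 were among those below. Tnfaip3 had 5.01 FPKM in coQ10, against 28.6 and 23.7 FPKM in BAPN. The transactivating subunit Rela had 65.9 FPKM in coQ10, against 55.5 and 42.3 FPKM in BAPN, and this direction was lost after rescaling, when it lay between them.

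AP-1 is a dimer of Fos, Jun and ATF family proteins, and the series was built around its activation and inhibition. All 12 listed subunit genes were tested, and none passed limma. By at least 1 log2, 6 lay below both BAPN libraries and 0 above, against 7.85% and 16.5% of all genes. After rescaling 7 lay below and 0 above by that distance, against 11.4% and 8.36% of all genes. The list median was −1.26, or −1.70 after rescaling. Fosb had 6.96 FPKM in coQ10, against 65.6 and 49.1 FPKM in BAPN. It had 83.9 and 36.9 FPKM in TPA, 34.3 and 23.2 FPKM in T-5224, and 7.75 and 15.1 FPKM in normal aorta. Fos had 40.6 FPKM in coQ10, against 128.7 and 156.1 FPKM in BAPN, and 475.4 and 231.3 FPKM in TPA, and it lay between the normal values of 28.1 and 65.9 FPKM. Atf3, a stress-induced repressor, had 29.2 FPKM in coQ10, against 131.4 and 118.5 FPKM in BAPN. Fosl1, Batf and Batf3 were also below both BAPN values by at least 1 log2, and Batf3 was listed at 0 in coQ10. Junb had 163.4 FPKM in coQ10, against 281.7 and 265.3 FPKM in BAPN, and stayed above the normal values of 49.6 and 40.3 FPKM.

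Jun and Jund, unlike Junb, lay above both BAPN libraries as deposited. Jun had 121.0 FPKM in coQ10, against 94.8 and 108.7 FPKM in BAPN, and Jund had 213.7 FPKM in coQ10, against 159.1 and 138.9 FPKM in BAPN. After rescaling, Jun lay below both BAPN libraries and Jund between them, so their direction depended on the scaling. Jdp2, a repressive dimer partner, had 44.9 FPKM in coQ10, against 33.1 and 29.2 FPKM in BAPN, Fosl2 had 31.8 FPKM, against 45.5 and 37.1 FPKM, and Atf2 lay between the BAPN values. The 22 immediate early genes outside AP-1 had a median of −1.25. By at least 1 log2, 11 of them lay below both BAPN libraries and 0 above, against 7.85% and 16.5% of all genes. Egr3 had 1.53 FPKM in coQ10, against 11.8 and 14.0 FPKM in BAPN, and Gadd45b, a stress response gene, had 19.5 FPKM, against 142.2 and 93.1 FPKM. Klf2, a shear-responsive endothelial factor, was the only member above both, with 114.1 FPKM in coQ10, against 59.9 and 51.5 FPKM in BAPN.

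Endothelial adhesion genes were divided. Of 13 members 5 lay below both BAPN libraries by at least 1 log2 and 0 above, against 7.85% and 16.5% of all genes. Their median was −0.92. Sele, which encodes E-selectin, had 0.51 FPKM in coQ10, against 15.4 and 12.1 FPKM in BAPN, which lay between the normal values of 0.78 and 0.36 FPKM. Icam1 had 21.1 FPKM in coQ10, against 116.7 and 104.1 FPKM in BAPN. Vcam1 had 49.7 FPKM in coQ10, against 31.0 and 23.1 FPKM in BAPN, with 16.6 and 13.1 FPKM in normal aorta. Among 10 acute phase genes, Ptx3, which encodes pentraxin 3, had 2.27 FPKM in coQ10, against 162.1 and 117.8 FPKM in BAPN, while Hp (haptoglobin) had 561.9 FPKM, against 51.3 and 32.0 FPKM, and Orm1 (orosomucoid) had 50.8 FPKM, against 1.34 and 2.13 FPKM. Their list had 3 members above and 2 below by at least 1 log2, and its median turned sign with the scaling, 0.10 as deposited and −0.38 after rescaling.

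Markers of blood and of several other tissues moved with these genes. Below both BAPN libraries lay 24.1% of all genes. Of 8 neutrophil markers, all 8 lay below both BAPN libraries, and their summed level was 103.5 FPKM in coQ10, against 1911 and 1084 FPKM in BAPN, none of them at 0. S100a9 had 52.9 FPKM in coQ10, against 1010 and 615.9 FPKM in BAPN. All 8 platelet markers lay below, with a sum of 44.9 FPKM in coQ10, against 638.7 and 690.8 FPKM in BAPN. All 7 B cell markers lay below, with a sum of 4.7 FPKM in coQ10, against 63.6 and 554.3 FPKM, and 2 of the markers were at 0 in coQ10. T cell markers summed to 5.2 FPKM in coQ10, against 22.7 and 181.1 FPKM in BAPN, with 7 of 8 below and Cd3d at 0 in coQ10. Red blood cell markers were below in 8 of 8, and their copies Hba-a1 and Hba-a2 share reads, so only their sum is given, 33370 FPKM for the whole list in coQ10, against 1128000 and 1337000 FPKM in BAPN. Macrophage markers did not share this pattern: 5 of 11 lay above both BAPN libraries and 0 below, against 59.6% and 24.1% of all genes. After rescaling 3 lay above and 0 below, against 39.2% and 40.2%. Macrophage markers summed to 668.3 FPKM in coQ10, against 677.5 and 322.4 FPKM in BAPN. In TPA, neutrophil markers summed to 793.7 and 259.1 FPKM, and the mean cytokine level was 3.69 and 3.40. In T-5224, neutrophil markers summed to 145.8 and 390.9 FPKM, and the mean cytokine level was 2.905 and 2.454. The mean cytokine level in BAPN was 5.39 and 4.97. The part of blood and leukocyte markers in the cytokine result was not tested. In bulk tissue, fewer cells of a type and less RNA per cell cannot be told apart.

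Genes of sympathetic neurons and of skeletal muscle made up 10 of the 12 genes furthest below the BAPN range. The 12 genes furthest below the BAPN range were Npy, Dbh, Prph, Ccl7, Slc6a2, Tnni2, Th, Il6, Tnnc2, Atp2a1, Ddc and Gal. Dbh, the enzyme that makes noradrenaline, had 0.22 FPKM in coQ10, against 274.6 and 269.6 FPKM in BAPN. Th, the rate-limiting enzyme of catecholamine synthesis, had 1.45 FPKM in coQ10, against 182.8 and 193.7 FPKM in BAPN, and the neuropeptide gene Npy had 0.61 FPKM, against 430.2 and 919.8 FPKM. The normal libraries were themselves apart for these genes, with Npy at 67.0 and 0 FPKM and Th at 9.14 and 0.16 FPKM. While 24.1% of all genes lay below both BAPN libraries, all 11 nerve and Schwann cell markers did. They had a sum of 220.9 FPKM in coQ10, against 1255 and 1147 FPKM. All 15 skeletal muscle markers lay below, with a sum of 82.0 FPKM in coQ10, against 4191 and 2681 FPKM in BAPN, and 3661 and 25.98 FPKM in normal aorta. None of these 26 markers was at 0 in any of the 3 libraries, and limma adjusted p was 0.187 for Dbh and 0.355 for Tnni2. The part of attached nerve and muscle in other results was not tested.

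**Figure D2:**
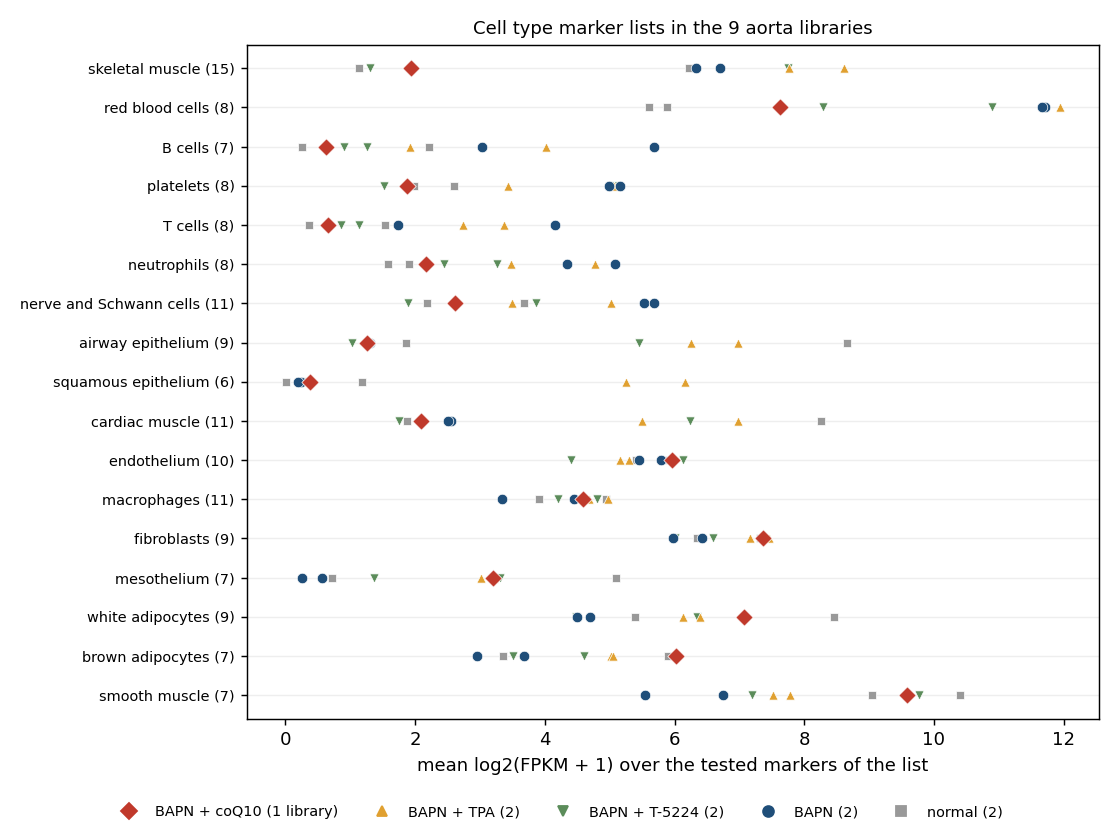
Mean log2(FPKM + 1) of the tested markers of 17 cell types and tissues (rows, with the number of markers) in each of the 9 libraries, ordered by the median difference of coQ10 from BAPN. The coQ10 diamond lies near T-5224 replicate 1 and normal replicate 2 for skeletal muscle and nerve, far left of both BAPN circles, and right of both BAPN circles for smooth muscle, adipocytes and mesothelium.

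Contractile smooth muscle genes were higher in the coQ10 library than in both BAPN libraries. All 24 listed genes were tested, and 15 lay above both BAPN values by at least 1 log2, against the 16.5% of all genes, while 0 lay below by that distance. At any distance 21 lay above and 1 below, against 59.6% and 24.1% of all genes. After rescaling 18 lay above and 3 below, against 39.2% and 40.2%. The median difference was 2.48, or 2.00 after rescaling, and none passed limma. Acta2, the smooth muscle α-actin, had 5014 FPKM in coQ10, against 745.4 and 246.3 FPKM in BAPN, and 3191 and 9310 FPKM in normal aorta. The coQ10 value was 10.1 times the BAPN mean of 495.9 ± 352.9 FPKM (SD, n = 2), with a difference of 3.54 ± 1.25 and a limma adjusted p of 0.213. Myh11, the smooth muscle myosin heavy chain, had 869.7 FPKM in coQ10, against 75.5 and 50.1 FPKM in BAPN. Its levels were 185.3 and 269.2 FPKM in TPA, 1102 and 50.3 FPKM in T-5224, and 683.8 and 2005 FPKM in normal aorta.

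Lmod1, which nucleates actin filaments in muscle, had 205.1 FPKM in coQ10, against 10.5 and 3.92 FPKM in BAPN, the largest distance of the list. Its difference was 4.78 ± 1.15 with a limma adjusted p of 0.186. Cnn1 (calponin) had 627.2 FPKM in coQ10, against 84.4 and 31.0 FPKM in BAPN, and Mylk (myosin light chain kinase) had 154.9 FPKM, against 17.5 and 10.6 FPKM. Myocd, the coactivator of serum response factor that drives the contractile programme, had 9.99 FPKM in coQ10, against 1.09 and 0.39 FPKM in BAPN, and 9.42 and 41.8 FPKM in normal aorta. Srf itself had 23.9 FPKM in coQ10, against 19.8 and 19.4 FPKM in BAPN, and lay below both after rescaling. Itga8 and Kcnmb1, an integrin chain and a potassium channel subunit of smooth muscle, had 325.3 and 71.6 FPKM in coQ10, against 30.1 and 6.14 FPKM in BAPN replicate 1 and 11.6 and 1.44 FPKM in BAPN replicate 2. Of the 24 genes, 14 lay between the normal libraries in coQ10, 10 below both and 0 above.

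Members that smooth muscle shares with striated muscle stood apart from this pattern. Des (desmin) had 21.3 FPKM in coQ10, against 109.0 and 35.3 FPKM in BAPN, and Casq2 and Pln, calcium handling genes of heart muscle, lay between the BAPN values. Of 11 cardiac markers 5 lay above both BAPN libraries and 4 below, against 59.6% and 24.1% of all genes. Their median was 0.19 (−0.20 after rescaling), and their sum was 68.8 FPKM in coQ10, against 205.0 and 84.6 FPKM in BAPN. The CArG box, the motif that serum response factor binds, was found in the 250 bases before the start site of 3 of the 19 contractile genes with a RefSeq sequence (15.8%), Srf, Myl9 and Ldb3, against 1.47% of all promoters.

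Receptors and channels of vascular tone lay above the BAPN range in 17 of 20 tested members, 12 of them by at least 1 log2. Of all genes 59.6% lay above, and 16.5% by that distance. The list median was 1.37 (0.97 after rescaling). Adra1d, an α1 adrenergic receptor, had 27.4 FPKM in coQ10, against 0.4 and 0.19 FPKM in BAPN, and 14.7 and 55.0 FPKM in normal aorta. Npy1r, the receptor of neuropeptide Y on smooth muscle, had 28.6 FPKM in coQ10, against 1.06 and 1.81 FPKM in BAPN, the opposite side from its ligand gene Npy. Npr1, the receptor of natriuretic peptides, had 94.0 FPKM in coQ10, against 18 and 13.3 FPKM. Agtr1a, the angiotensin II receptor, lay on the other side, with 2.04 FPKM in coQ10, against 12.2 and 17.2 FPKM in BAPN and 8.89 and 1.83 FPKM in normal aorta. Ptgis, the prostacyclin synthase, had 438.2 FPKM in coQ10, against 58.7 and 21.2 FPKM in BAPN, and Ptgs2, the inducible cyclooxygenase, had 4.64 FPKM, against 22.4 and 17.4 FPKM.

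**Figure D3:**
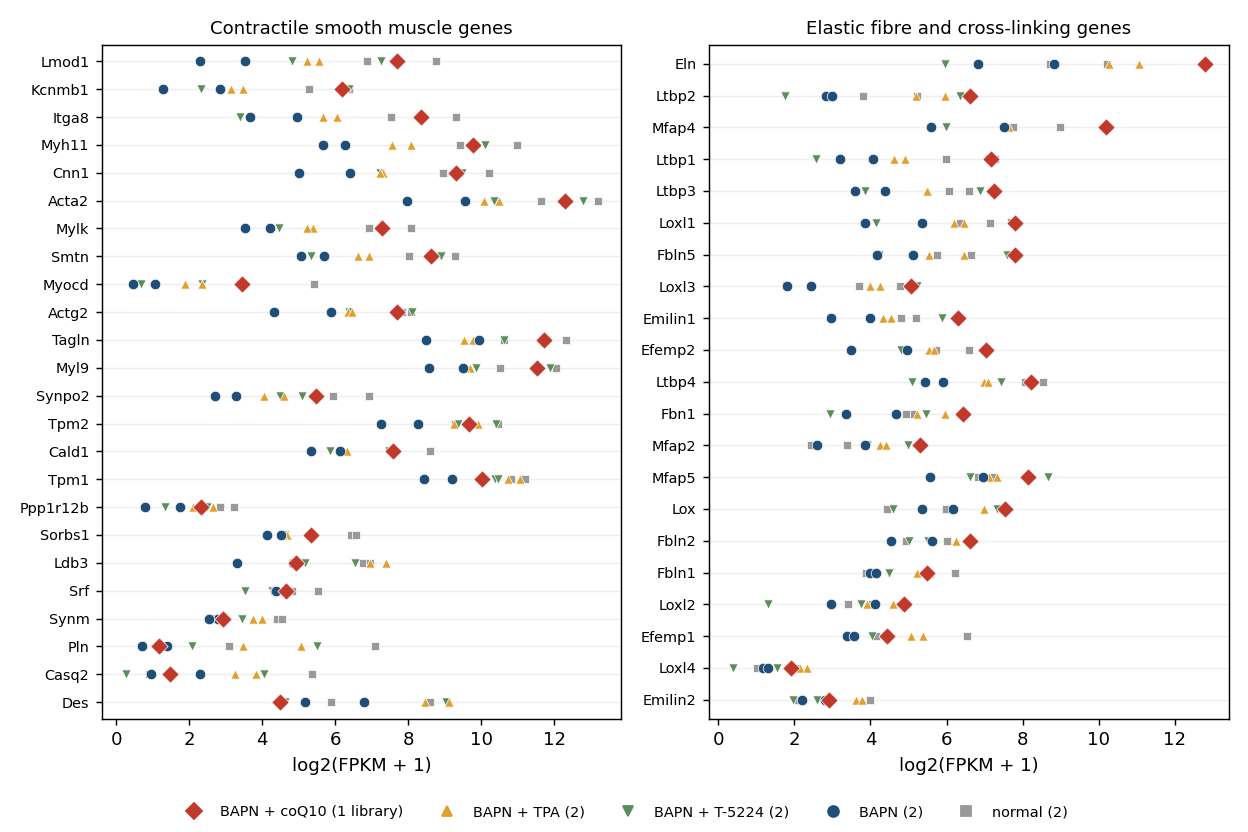
Levels of the 24 contractile smooth muscle genes (left) and the 21 tested elastic fibre and cross-linking genes (right) in each of the 9 libraries, as log2(FPKM + 1), ordered by the difference of coQ10 from BAPN. The coQ10 diamond lies right of both BAPN circles for 21 genes in the left panel and for all 21 in the right panel, and T-5224 replicate 1 lies near coQ10 for elastin.

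Elastic fibre genes lay above the BAPN range as a whole list. All 21 tested members were above both BAPN libraries, 16 of them by at least 1 log2, with a median of 2.56. Of all genes 59.6% lay above, and 16.5% by that distance. After rescaling 20 were above and 0 below, with a median of 2.08. Eln (chr5:134702595-134747368), which encodes elastin, had 7100 FPKM in coQ10, against 452.9 and 113.6 FPKM in BAPN. It had 2148 and 1237 FPKM in TPA, 7046 and 61.8 FPKM in T-5224, and 424.2 and 1194 FPKM in normal aorta, so the coQ10 value was the highest of the 9 libraries and close to T-5224 replicate 1. The difference was 4.96 ± 2.47 with a limma adjusted p of 0.308. Ltbp2 and Ltbp1, proteins that anchor latent TGF-β to the matrix, had 96.6 and 143.0 FPKM in coQ10, against 6.99 and 15.8 FPKM in BAPN replicate 1 and 6.12 and 8.17 FPKM in BAPN replicate 2.

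The targets of BAPN itself were among them. The lysyl oxidase genes Lox and Loxl1 were chosen after their values were seen. Lox had 186.2 FPKM in coQ10, against 70.6 and 40.0 FPKM in BAPN, and 20.7 and 62.3 FPKM in normal aorta, and Loxl1 had 223.1 FPKM, against 40.1 and 13.5 FPKM in BAPN and 80.7 and 141.5 FPKM in normal aorta. For both genes coQ10 was above all BAPN and normal libraries. Of the 21 members, 15 lay above both normal libraries in coQ10 and 6 between them.

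Collagens followed with 18 of 19 above both BAPN libraries, 14 by at least 1 log2, and a median of 2.47 (1.98 after rescaling). Of all genes 59.6% lay above, and 16.5% by that distance. Col18a1 and Col15a1, the collagens next to basement membranes, had 575.0 and 227.3 FPKM in coQ10, against 48.7 and 17.2 FPKM in BAPN replicate 1 and 13.6 and 13.3 FPKM in BAPN replicate 2. Col5a3 was the exception, with 5.0 FPKM in coQ10, against 15.7 and 17.5 FPKM in BAPN. In coQ10, 16 of the 19 collagen genes lay above both normal libraries and 0 below. Modulated smooth muscle and matricellular genes lay above in 11 of 17 and below in 1, a share above near that of all genes (59.6% above, 24.1% below). After rescaling 11 lay above and 4 below, against 39.2% and 40.2% of all genes. Fn1 (fibronectin) had 709.8 FPKM in coQ10, against 111.1 and 51.9 FPKM in BAPN. Thbs1, a matricellular gene induced by injury, was the member below as deposited, with 67.3 FPKM in coQ10, against 163.3 and 122.2 FPKM in BAPN. Fibroblast markers lay above in 8 of 9 and below in 0, with a sum of 2809 FPKM in coQ10, against 1455 and 1524 FPKM, although after rescaling 5 lay above and 3 below. The part of fibroblast content in the collagen values was not tested.

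Matrix proteases showed no common side. Of 23 tested members 6 lay above by at least 1 log2 and 3 below, against 16.5% and 7.85% of all genes. The median turned sign with the scaling, 0.28 as deposited and −0.17 after rescaling. Adamts4, an aggrecanase induced by inflammatory cytokines, had 1.7 FPKM in coQ10, against 40.7 and 21.6 FPKM in BAPN, and 0.7 and 0.42 FPKM in normal aorta. The neutrophil collagenase Mmp8 had 0.08 FPKM in coQ10, against 4.91 and 3.08 FPKM in BAPN. Adamts15, another aggrecanase, had 25.1 FPKM in coQ10, against 1.17 and 0.73 FPKM in BAPN (difference 3.75 ± 0.43, limma adjusted p = 0.087), above every other library, and Timp2, a protease inhibitor, had 449.2 FPKM, against 106.6 and 82.6 FPKM. Genes of the TGF-β and BMP response lay above in 19 of 22, 10 by at least 1 log2, against 59.6% and 16.5% of all genes. Their median was 1.30 (0.86 after rescaling). Id1, a direct BMP target, had 204.2 FPKM in coQ10, against 46.9 and 28.3 FPKM in BAPN.

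**Figure D4:**
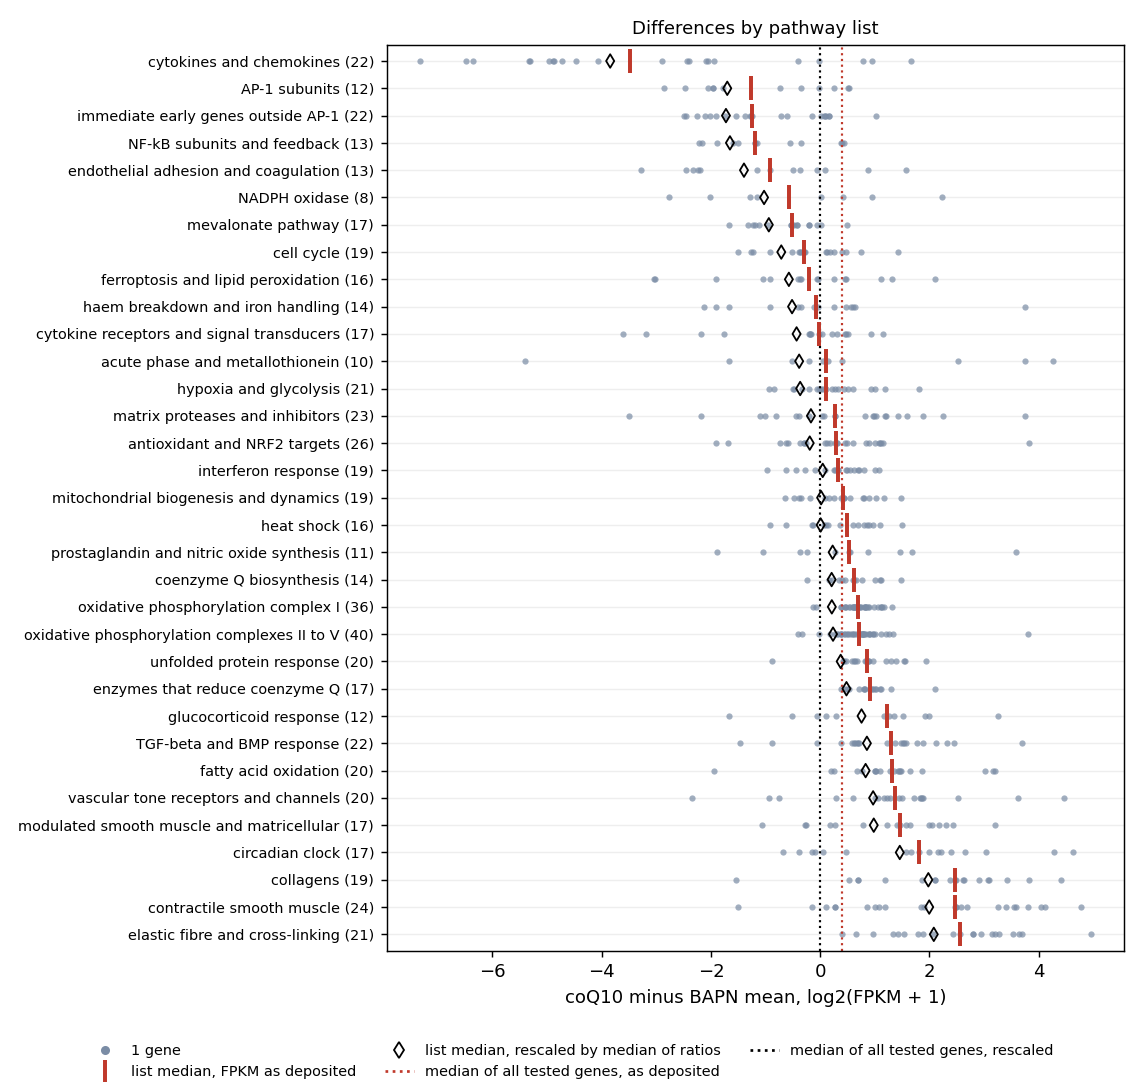
Difference of coQ10 from the BAPN mean on the log2(FPKM + 1) scale for every tested gene of the 33 pathway lists (rows, with the number of genes). Red bars are list medians as deposited, open diamonds the medians after median-of-ratios rescaling, and dotted lines the medians of all tested genes, 0.39 and −0.01; cytokines stand at the low end and elastic fibre genes at the high end on either scale.

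The genes that make coenzyme Q differed little between the libraries. Of 15 listed genes 14 were tested. Above both BAPN libraries lay 10, with 0 below and 4 between, against 59.6% above and 24.1% below for all genes. None lay outside by as much as 1 log2, against 16.5% above and 7.85% below for all genes. The median was 0.61 against 0.39 for all genes, and after rescaling it was 0.21. After rescaling 7 lay above and 1 below, against 39.2% and 40.2% of all genes. Adck3, the kinase-like protein that supports the synthesis complex, had 56.2 FPKM in coQ10, against 29.6 and 12.5 FPKM in BAPN. Pdss1, which starts the polyprenyl tail, had 1.9 FPKM in coQ10, against 0.28 and 0.65 FPKM in BAPN. The ring-modifying enzymes Coq6 and Coq7 had 20.8 and 42.1 FPKM in coQ10, against 13.7 and 26.9 FPKM in BAPN replicate 1 and 5.94 and 21.9 FPKM in BAPN replicate 2. Coq2, the enzyme that joins ring and tail, had 31.1 FPKM in coQ10, against 17.2 and 22.1 FPKM, and Coq9, a lipid-binding partner of Coq7, had 50.2 FPKM, against 32.5 and 16.3 FPKM. Coq3, Pdss2, Adck4 and Coq10b lay between the BAPN values, and Coq5, Coq10a, Coq4 and Hpd lay above them by at most 0.50 log2. In 8 of the 14 genes the coQ10 value lay between the normal libraries.

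Genes of the mevalonate pathway, which supplies the isoprenoid tail of coenzyme Q as well as cholesterol, lay on the other side. Of 17 tested members 13 lay below both BAPN libraries and 1 above, against 24.1% and 59.6% of all genes. Of the 13, 4 lay below by at least 1 log2, against 7.85% of all genes. The list median was −0.52 (−0.94 after rescaling). After rescaling 16 lay below and 0 above, against 40.2% and 39.2% of all genes. Fdps, the farnesyl diphosphate synthase at the branch point, had 25.3 FPKM in coQ10, against 84.1 and 81.3 FPKM in BAPN, and 27.1 and 15.2 FPKM in normal aorta. Hmgcs1 had 16.4 FPKM in coQ10, against 34.9 and 51.3 FPKM in BAPN. In 11 of the 17 genes the coQ10 value lay between the normal libraries.

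The next list holds 17 genes of enzymes that pass electrons to coenzyme Q, directly or, for the electron transfer flavoprotein, through another enzyme. All 17 lay above both BAPN libraries, against 59.6% of all genes, but only 2 by at least 1 log2, against 16.5%. Their median was 0.91. After rescaling 13 lay above and 0 below, against 39.2% and 40.2% of all genes, with a median of 0.48. Aifm2, also named FSP1, which reduces coenzyme Q outside mitochondria and protects membranes from lipid peroxidation, had 40.1 FPKM in coQ10, against 12.6 and 5.73 FPKM in BAPN. It had 18.1 and 23.0 FPKM in TPA, 7.67 and 63.3 FPKM in T-5224, and 60.3 and 16.1 FPKM in normal aorta. Its difference was 2.10 ± 1.23 with a limma adjusted p of 0.376. Etfb, a subunit of the electron transfer flavoprotein of fatty acid oxidation, had 359.6 FPKM in coQ10, against 168.8 and 125.0 FPKM in BAPN, whereas the quinone oxidoreductase that takes its electrons, Etfdh, had 39.9 FPKM, against 35.6 and 25.5 FPKM. Sqrdl, the sulphide oxidoreductase, had 38.6 FPKM in coQ10, against 21.7 and 15.9 FPKM, Gpd2 had 10.96 FPKM, against 5.93 and 4.47 FPKM, and Dhodh had 4.01 FPKM, against 1.79 and 3.36 FPKM. The cytosolic quinone reductase Nqo1 had 17.2 FPKM in coQ10, against 11.5 and 4.79 FPKM. The coQ10 value lay between the normal libraries for all 17 genes.

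Subunits of the respiratory chain lay above the BAPN range at small distances as deposited, and for complexes II to V the share above was near that of all genes after rescaling. Of 36 complex I genes 34 lay above both BAPN libraries and 1 below, 3 by at least 1 log2, with a median of 0.70, and after rescaling 24 lay above and 2 below with a median of 0.21. Of all genes 59.6% lay above as deposited, 16.5% by at least 1 log2, and 39.2% lay above after rescaling. Of 40 genes of complexes II to V, 36 lay above and 2 below, with a median of 0.72 (0.24 after rescaling, 18 above and 6 below). Cox7a1, a cytochrome oxidase subunit of muscle and brown fat, stood apart with 358.3 FPKM in coQ10, against 21.97 and 27.39 FPKM in BAPN. Genes of fatty acid oxidation lay further out, 19 of 20 above and 9 by at least 1 log2, with a median of 1.31 (0.83 after rescaling). Cpt1b, which admits fatty acids to muscle and brown fat mitochondria, had 59.9 FPKM in coQ10, against 8.15 and 3.77 FPKM in BAPN. Ucp2 was the member below, with 115.3 FPKM in coQ10, against 448.6 and 439.0 FPKM.

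Fat markers moved with these mitochondrial genes. Above both BAPN libraries lay 59.6% of all genes. All 7 brown adipocyte markers lay above both BAPN libraries, with a sum of 1849 FPKM in coQ10, against 269.5 and 113.9 FPKM in BAPN, and 1403 and 170.0 FPKM in normal aorta, and 1 of the 7 was at 0 in each BAPN library. Ucp1, the uncoupling protein of brown fat, had 296.9 FPKM in coQ10, against 29.4 and 8.33 FPKM in BAPN. All 9 white adipocyte markers lay above, with a sum of 6312 FPKM in coQ10, against 4617 and 3166 FPKM, and none at 0. Adipoq (adiponectin) had 209.8 FPKM in coQ10, against 5.94 and 13.4 FPKM in BAPN. All 7 mesothelial markers lay above, with a sum of 85.0 FPKM in coQ10, against 3.9 and 1.6 FPKM, and 2 of the 7 were at 0 in each BAPN library. The part of attached fat and outer lining in the mitochondrial and fatty acid values was not tested.

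Of 26 antioxidant genes 13 lay above both BAPN libraries and 9 below, against 59.6% and 24.1% of all genes. After rescaling 9 lay above and 12 below, against 39.2% and 40.2% of all genes, and the median turned sign with the scaling (0.29 as deposited, −0.19 after rescaling). Sod3, the extracellular superoxide dismutase of the vessel wall, had 916.4 FPKM in coQ10, against 102.0 and 39.6 FPKM in BAPN, and 361.8 and 576.4 FPKM in normal aorta. Hmox1, the inducible haem oxygenase, had 107.8 FPKM in coQ10, against 800.8 and 205.9 FPKM in BAPN, and 28.5 and 14.6 FPKM in normal aorta. Srxn1, which repairs oxidised peroxiredoxins, had 19.1 FPKM in coQ10, against 89.4 and 45.7 FPKM. Among 16 ferroptosis genes 2 lay above by at least 1 log2 and 3 below, against 16.5% and 7.85% of all genes. Gch1 had 2.5 FPKM in coQ10, against 25.1 and 29.9 FPKM in BAPN. The platelet lipoxygenase Alox12 had 2.52 FPKM, against 25.9 and 29.9 FPKM. Acsl4, which makes the lipids that peroxidise, had 3.29 FPKM in coQ10, against 7.92 and 7.88 FPKM, and Gpx4, the glutathione peroxidase of lipids, had 1005 FPKM, against 550.8 and 385.1 FPKM. Of 8 tested NADPH oxidase genes, the leukocyte subunits Ncf4, Ncf1 and Rac2 lay below both BAPN libraries and Nox4, the form of smooth muscle, above: Nox4 had 51.3 FPKM in coQ10, against 14.2 and 7.2 FPKM in BAPN.

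The circadian clock list stood out among the remaining lists. Of 17 tested genes 12 lay above both BAPN libraries and 3 below, against 59.6% and 24.1% of all genes. By at least 1 log2, 11 lay above, on either scaling and without either BAPN library. The share of all genes at that distance was 16.5% as deposited and 8.36% after rescaling. The median was 1.80, or 1.46 after rescaling. Ciart, a repressor of the clock, had 43.7 FPKM in coQ10, against 0.17 and 1.8 FPKM in BAPN. It had 1.71 and 2.13 FPKM in TPA, 5.67 and 2.86 FPKM in T-5224, and 7.66 and 5.25 FPKM in normal aorta, so coQ10 lay above every other library by at least 2.37 log2, the widest such gap among tested genes without clone-like names. Its difference from BAPN was 4.63 ± 0.62 with a limma adjusted p of 0.149. Dbp, a PAR bZIP factor driven by the clock, had 107.0 FPKM in coQ10, against 5.12 and 4.02 FPKM in BAPN, and Nr1d1, the repressor REV-ERBα, had 120.5 FPKM, against 14.6 and 13.2 FPKM (limma adjusted p = 0.137). Per1, a core clock repressor, had 102.5 FPKM in coQ10, against 20.9 and 29.9 FPKM in BAPN, and was the highest of the 9 libraries. Below both BAPN libraries as deposited lay Bhlhe40, Arntl (BMAL1) and Cry1. Bhlhe40 had 39.8 FPKM in coQ10, against 66.5 and 62.05 FPKM in BAPN. Arntl had 6.05 FPKM in coQ10, against 10.4 and 6.51 FPKM, and Cry1 had 4.54 FPKM, against 4.92 and 4.85 FPKM. In 0 of the 17 genes did coQ10 lie between the normal libraries. The labels give no time of day for the collection of the aortas.

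The 250 bases before Ciart are shown because it had the widest gap, and because they hold the E-box CACGTG, to which the clock activators bind, in 3 places. They lie on chr3:95882229-95882478, minus strand, RefSeq on GRCm38.p6 (mm10), with the E-boxes in capitals.
Ciart: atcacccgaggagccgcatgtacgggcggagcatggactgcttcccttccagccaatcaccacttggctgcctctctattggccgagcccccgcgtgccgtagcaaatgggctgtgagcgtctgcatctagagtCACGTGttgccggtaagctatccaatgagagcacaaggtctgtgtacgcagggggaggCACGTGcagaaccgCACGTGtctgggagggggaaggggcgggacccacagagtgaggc
The matches began 116, 58 and 44 bases before the start site. An E-box was found in 5 of the 15 clock genes with a RefSeq sequence (33.3%), Ciart, Per1, Cry1, Tef and Bhlhe41, the last 2 named for this match alone, against 6.02% of all promoters, and the D-box TTANGTAA in 1 (6.67%), Per3, against 2.06%.

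**Figure D5:**
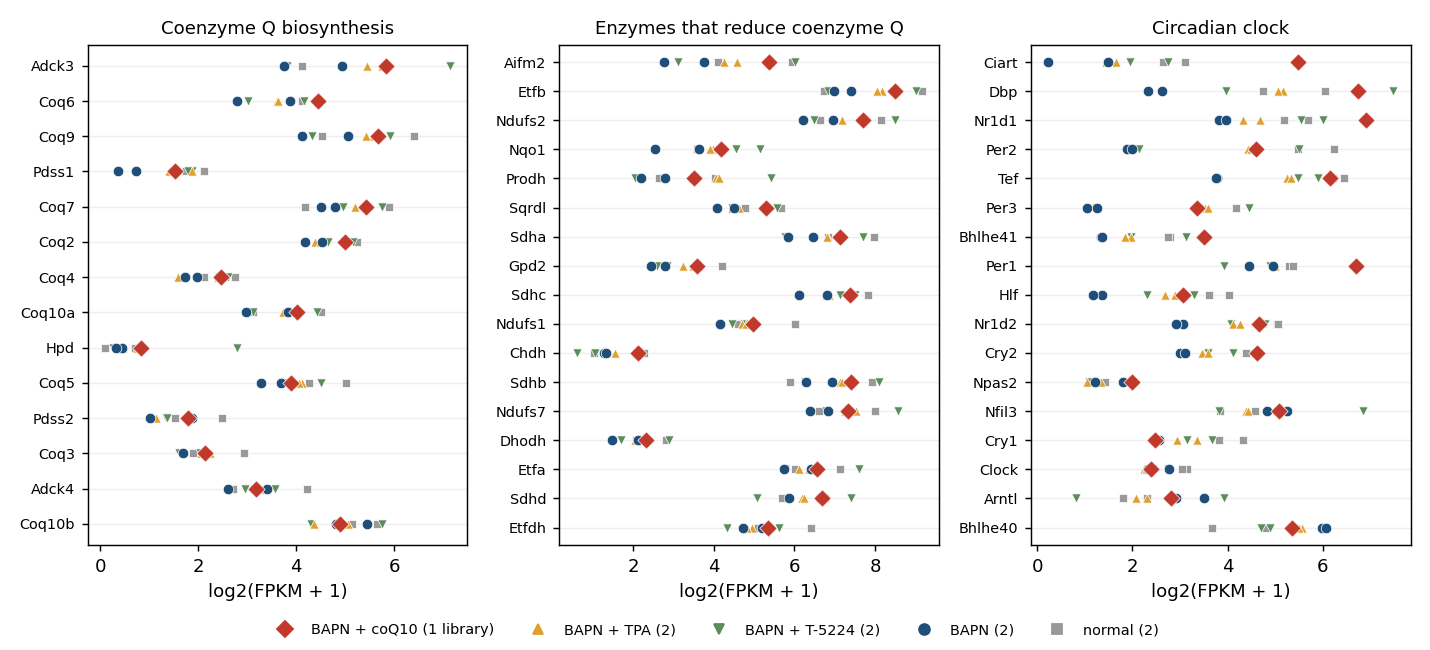
Levels of the coenzyme Q biosynthesis genes, the enzymes that reduce coenzyme Q and the circadian clock genes in each of the 9 libraries, as log2(FPKM + 1), ordered by the difference of coQ10 from BAPN. The coQ10 diamond lies close to the BAPN circles in the left panel, right of both in the middle panel by a median difference of 0.91, and far right of all other libraries for Ciart at the top of the right panel.

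Glucocorticoid-responsive genes lay above both BAPN libraries by at least 1 log2 in 6 of 12 and below in 1, against 16.5% and 7.85% of all genes. After rescaling 3 lay above and 1 below by that distance, against 8.36% and 11.4% of all genes, and the median was 1.22 as deposited and 0.76 after rescaling. Zbtb16, a zinc finger factor, had 27.7 FPKM in coQ10, against 2.28 and 1.72 FPKM in BAPN, and 39.0 and 70.0 FPKM in normal aorta, and Fkbp5, a chaperone of the glucocorticoid receptor, had 51.8 FPKM, against 13.5 and 12.3 FPKM. Genes of the unfolded protein response lay above in 19 of 20 and below in 1, against 59.6% and 24.1% of all genes. Their median was 0.85 (0.38 after rescaling), and they were led by Herpud1 with 121.2 FPKM in coQ10, against 30.4 and 31.0 FPKM in BAPN. Atf4, the member below, had 105.8 FPKM in coQ10, against 226.3 and 168.1 FPKM. Cell cycle genes lay above in 5 of 19 and below in 10, against 59.6% and 24.1% of all genes, and after rescaling above in 3 and below in 14, against 39.2% and 40.2%. Among them was Birc5 (survivin), with 4.87 FPKM in coQ10, against 13.1 and 18.6 FPKM. Interferon response, heat shock and mitochondrial biogenesis genes had medians of 0.33, 0.49 and 0.41, close to that of all genes, and the medians of the hypoxia, endothelium and cardiac muscle lists turned sign with the scaling.

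The 12 genes furthest above the BAPN range were Sost, Upk3b, Igfbp2, Mylk4, Mup10, Lgr6, Mup18, Adcy5, Mlxipl, Adra1d, Npnt and Hyal1. Sost, which encodes the Wnt inhibitor sclerostin, had 429.9 FPKM in coQ10, against 9.6 and 5.0 FPKM in BAPN, and 291.2 and 1158 FPKM in normal aorta. Igfbp2, a binding protein of insulin-like growth factors, had 120.7 FPKM in coQ10, against 2.75 and 1.59 FPKM in BAPN, and 34.7 and 19.9 FPKM in normal aorta. Lgr6, a receptor of R-spondins, had 44.8 FPKM in coQ10, against 0.87 and 0.31 FPKM, and Adcy5, an adenylyl cyclase, had 100.5 FPKM, against 3.65 and 3.38 FPKM. Npnt, a matrix ligand of the integrin chain that Itga8 encodes, had 352.4 FPKM in coQ10, against 17.5 and 4.85 FPKM in BAPN. Upk3b, a mesothelial marker, had 38.1 FPKM in coQ10, against 0 and 0.05 FPKM in BAPN. Mup10 and Mup18 belong to the major urinary protein family of near-identical copies, so their separate values are uncertain. Limma adjusted p for these 12 genes was between 0.19 and 0.24.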

How the data were processed

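Aortic RNA was measured by bulk RNA-seq in 9 libraries. The authors deposited FPKM per gene symbol, rounded to 2 decimals and listing only genes above 0; the genome build was mm10, per the submitters' processing notes. For the aligner, the counter and the annotation: not given in the sources used here. Unlisted genes were set to 0. Groups follow the treatment labels. In limma 3.58.1 (R 4.3.3), log2(FPKM + 1) of genes averaging 1 FPKM or more was fitted over all 9 libraries and 5 groups with a mean-dependent variance trend, and coQ10 was contrasted with BAPN, two-sided, with Benjamini-Hochberg adjustment at 0.05. The code was tested on simulated data. The distance from the nearer BAPN library is a description. Alternatives were another offset, no filter, median-of-ratios scaling, haemoglobin left out, only the 3 libraries, and each library left out. The text names the 12 genes furthest above and the 12 furthest below the BAPN range, all members of the cytokine, AP-1, contractile and both coenzyme Q lists, and the 3 furthest on each side of other lists. Members and lists were chosen with earlier results of these data known. Promoters were matched by symbol to RefSeq on GRCm38.p6.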

Additional observations from a re-analysis of the deposited data

How the results depend on the processing

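No paired analysis was possible because coQ10 has a single library and the labels give no pairing between libraries. Of the genes tested, 0 were higher and 2 lower in coQ10, 2 in all. With an offset of 0.1, 1 was lower and 1 passed in all. Without the filter, 5 were higher and 7 passed in all. With median-of-ratios scaling, 10 were lower and 10 passed in all. A fit of only the 3 coQ10 and BAPN libraries has 1 residual degree of freedom, against 4 in the main fit. Its spread comes from the BAPN pair alone, so its counts are not a stronger result. With only the 3 coQ10 and BAPN libraries, 713 were higher, 534 lower and 1247 passed in all. Leaving out 1 library at a time gave 0 to 134 higher, 0 to 42 lower and 0 to 176 in all, the highest without T-5224 replicate 2 (without T-5224 replicate 1, 7, 18 and 25). Genes above the BAPN range by at least 1 log2 numbered 2147, against 1085 after rescaling, and 2141 to 3239 with 1 library left out, the highest without BAPN replicate 1. The median difference of all genes was 0.39, and it was 0.47 with the offset of 0.1, 0.18 without the filter, −0.0071 after rescaling and 0.18 without haemoglobin. The cause of these changes was not tested. Over 50 list medians and all settings, 534 values moved by less than the spread between the BAPN libraries, and 116 moved further. Leaving out a TPA, T-5224 or normal library, or fitting only the 3 libraries, can change a list median only through the filter. Small moves in those settings were fixed in advance, so the 534 values are not a measure of stability. The 25 medians of at least 1 in size kept their sign, while those of the acute phase, protease, antioxidant, hypoxia, endothelium and cardiac lists turned sign after rescaling. The coQ10 library has no replicate and FPKM gives no depth, so counting error is unknown.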

Other observations

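Over the tested genes, the coQ10 library held the highest of the 9 values for 1089 genes and the lowest for 606. The genes named here were chosen after their values were seen. Ace, which encodes the angiotensin-converting enzyme, had 243.0 FPKM in coQ10, against 44.7 and 26.5 FPKM in BAPN, and the next library lay 1.06 log2 below coQ10. C1qtnf3, a secreted relative of adiponectin, had 16.6 FPKM in coQ10, against 0.59 and 2.35 FPKM in BAPN. On the low side, Ccl5 had the widest gap, 1.70 log2 to the next library. These values were given no test.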
